A study of Homo sapiens with 12 samples.

Results

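Replication-independent histone variants are encoded by single genes outside the large histone clusters. The group described here held 8 genes, H1-10, H2AZ1, H2AZ2, H2AX, H2AJ, H3-3A, H3-3B and MACROH2A1, chosen by gene name from the 60671 rows of the expression table. Their RNA was measured in 12 libraries of cells labelled Jurkat, a line derived from human T-cell leukemia. The 4 groups of 3 libraries each were NC and PTPN21 cells, each with DMSO (NC+DMSO, PTPN21+DMSO) or with VCR (NC+VCR, PTPN21+VCR). NC cells are wild type by their label and carried the pHIV7-SFFV-GFP vector according to the study's methods. PTPN21 cells overexpressed FLAG-tagged PTPN21, a non-receptor tyrosine phosphatase, from a lentiviral vector, so both arms had been transduced. VCR is vincristine, a vinca alkaloid that blocks microtubule assembly, and DMSO is its solvent. All cells were harvested after 48 h, and no dose was given for the sequenced cells. The methods give 3 replicates per group for the sequencing and speak in general of independent experiments, but do not say that these libraries came from separate cultures. P-values therefore measure the spread between these libraries, which may be technical.

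DNA in the nucleus is wrapped around histones. Most histone genes are transcribed in S phase, when new DNA needs packing, and their mRNAs typically end in a stem-loop. Variant histones are in large part made from ordinary polyadenylated mRNAs through the cell cycle, and dedicated chaperones place them at active genes, regulatory elements, damaged DNA or silent chromatin. H2AX is an intermediate case, since its gene yields both a stem-loop mRNA and a polyadenylated mRNA. H3-3A and H3-3B encode the same protein, histone H3.3, while H2AZ1 and H2AZ2 encode a pair of closely related H2A.Z proteins.

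RefSeq promoter windows (GRCh38.p14), from 250 bases before to 50 bases after a transcript start, were matched by symbol for all 8 genes, giving 12 windows. The windows of H2AX and H3-3B are shown because these genes gave called differences in opposite directions in PTPN21 cells under VCR, and those of H2AZ1 and H2AZ2 because they are a pair. Each sequence is the 250 bases before the start, 5′ to 3′ on the minus strand. Capitals mark 3 motifs on either strand, so that a match on the other strand appears as its reverse complement. They are CCAAT, the Y box bound by the factor NF-Y, then TATAAA, the letters of the TATA box, and lastly TTTGAA, the core of the cell cycle genes homology region. The H2AX window lies at chr11:119095466-119095715, the H3-3B window at chr17:75779780-75780029, the H2AZ1 window at chr4:99950276-99950525 and the H2AZ2 window at chr7:44848088-44848337.
H2AX: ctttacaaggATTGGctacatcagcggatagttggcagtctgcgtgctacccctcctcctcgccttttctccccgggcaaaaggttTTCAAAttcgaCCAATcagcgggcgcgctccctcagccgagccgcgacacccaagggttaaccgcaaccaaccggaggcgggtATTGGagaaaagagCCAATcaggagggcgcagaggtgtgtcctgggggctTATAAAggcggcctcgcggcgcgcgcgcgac
H3-3B: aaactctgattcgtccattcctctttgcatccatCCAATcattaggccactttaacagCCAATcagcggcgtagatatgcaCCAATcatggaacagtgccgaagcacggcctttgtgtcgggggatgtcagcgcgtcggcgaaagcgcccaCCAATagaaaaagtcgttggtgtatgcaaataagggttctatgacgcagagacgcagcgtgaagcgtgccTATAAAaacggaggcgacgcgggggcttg
H2AZ1: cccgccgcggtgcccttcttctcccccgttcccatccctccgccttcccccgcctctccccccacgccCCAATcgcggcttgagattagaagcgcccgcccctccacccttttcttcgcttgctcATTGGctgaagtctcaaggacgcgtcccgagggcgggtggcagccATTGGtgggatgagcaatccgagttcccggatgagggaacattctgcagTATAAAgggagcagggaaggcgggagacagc
H2AZ2: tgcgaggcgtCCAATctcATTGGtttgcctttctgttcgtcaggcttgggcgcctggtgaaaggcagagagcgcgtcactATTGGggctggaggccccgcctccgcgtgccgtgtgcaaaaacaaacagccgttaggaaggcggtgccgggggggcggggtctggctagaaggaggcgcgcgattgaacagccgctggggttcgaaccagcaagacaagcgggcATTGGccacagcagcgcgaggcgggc

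The H2AX, H3-3B and H2AZ2 windows each held 4 CCAAT matches, and 0.991% of all 35116 RefSeq windows of this length held 4 or more. H2AZ1 and H2AJ each held 3, which 3.26% of windows reached. At least 1 CCAAT match was present in 34.6% of windows. The 4 H3-3A windows held 1, 1, 0 and 1 match, the MACROH2A1 windows held 0 and 2, and the H1-10 window held 0. TATAAA began at -31 in H2AX, H2AZ1 and H1-10 and at -29 in H3-3B, counting the start as 1, and 11.5% of windows held it. TTTGAA was found in H2AX at -164 on the reverse strand and in H2AZ1 at 5, past the end of the printed bases, against 15.2% of windows. These are letter matches, and occupancy was not measured.

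The deposited values were in FPKM, the number of fragments scaled to transcript length and to library size, so that levels can be compared between genes. Fragments per library, estimated from the smallest steps of FPKM, ranged from 14300000 to 17900000 in NC libraries and from 20500000 to 23800000 in PTPN21 libraries. Every PTPN21 library was deeper than every NC library, so that construct and depth cannot be told apart. PTPN21 itself was 0.0638 ± 0.0378 FPKM in NC+DMSO against 8.82 ± 1.48 FPKM in PTPN21+DMSO (SD, n = 3). With VCR it was 0.367 ± 0.205 FPKM in NC cells against 5.74 ± 1.21 FPKM in PTPN21 cells, so that the overexpression labels held. The T cell label did not hold in the same way. Of 10 T cell markers, 8 had a mean below 1 FPKM over the 12 libraries, and LCK and CD247 were listed at 0 in all 12. TRBC1 ranged from 0 to 4.15 FPKM, and only CD3D was high (61.8 to 139.7 FPKM). KRT8 (236 to 1186 FPKM) and EPCAM (58.3 to 122.7 FPKM), epithelial markers, and HBG2 (560 to 2985 FPKM) and GATA1 (13.5 to 106 FPKM), erythroid genes, were present throughout. CDH1, the E-cadherin gene and a further epithelial marker, was at or below 1.83 FPKM, and of 5 myeloid markers CD33 (20.5 to 44.4 FPKM) and LYZ (9.08 to 17.0 FPKM) were present and CD14 and MPO had means below 1 FPKM. The erythroid list was chosen after the values were seen. All 12 libraries shared these features, so no result can be given without them. The cells are therefore named below by their group alone.

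A gene was called when its adjusted p was below 0.05 in limma on log2(FPKM + 1), with Benjamini-Hochberg adjustment over the 11591 genes whose mean was at least 1 FPKM. Fold changes are on that log2 scale, with their standard error (SE). Of the 8 variant genes, 7 could be tested. H2AJ, an H2A variant gene known for its rise in senescent cells, was listed at 0 in 11 libraries and at 1.55 FPKM in NC+DMSO replicate 3. Mean FPKM over the 12 libraries was 87.3 for H3-3A, 86.4 for H3-3B, 79.6 for H2AZ1, 71.2 for MACROH2A1, 41.2 for H2AX, 18.9 for H2AZ2 and 12.8 for H1-10. H3-3A, H3-3B, H2AZ1 and MACROH2A1 overlapped in their ranges over the libraries, which ran from 45.6 to 147.6 FPKM between them. H2AX overlapped with them in its DMSO libraries alone, and H2AZ2 and H1-10 overlapped with each other. The summed FPKM of the 8 genes was 392.5 ± 18.7 in NC+DMSO and 335 ± 38.3 in NC+VCR, and 455 ± 37.4 in PTPN21+DMSO and 408 ± 47.4 in PTPN21+VCR (SD, n = 3). In bulk RNA, fewer cells of a type and less RNA per cell cannot be told apart.

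**Figure D1:**
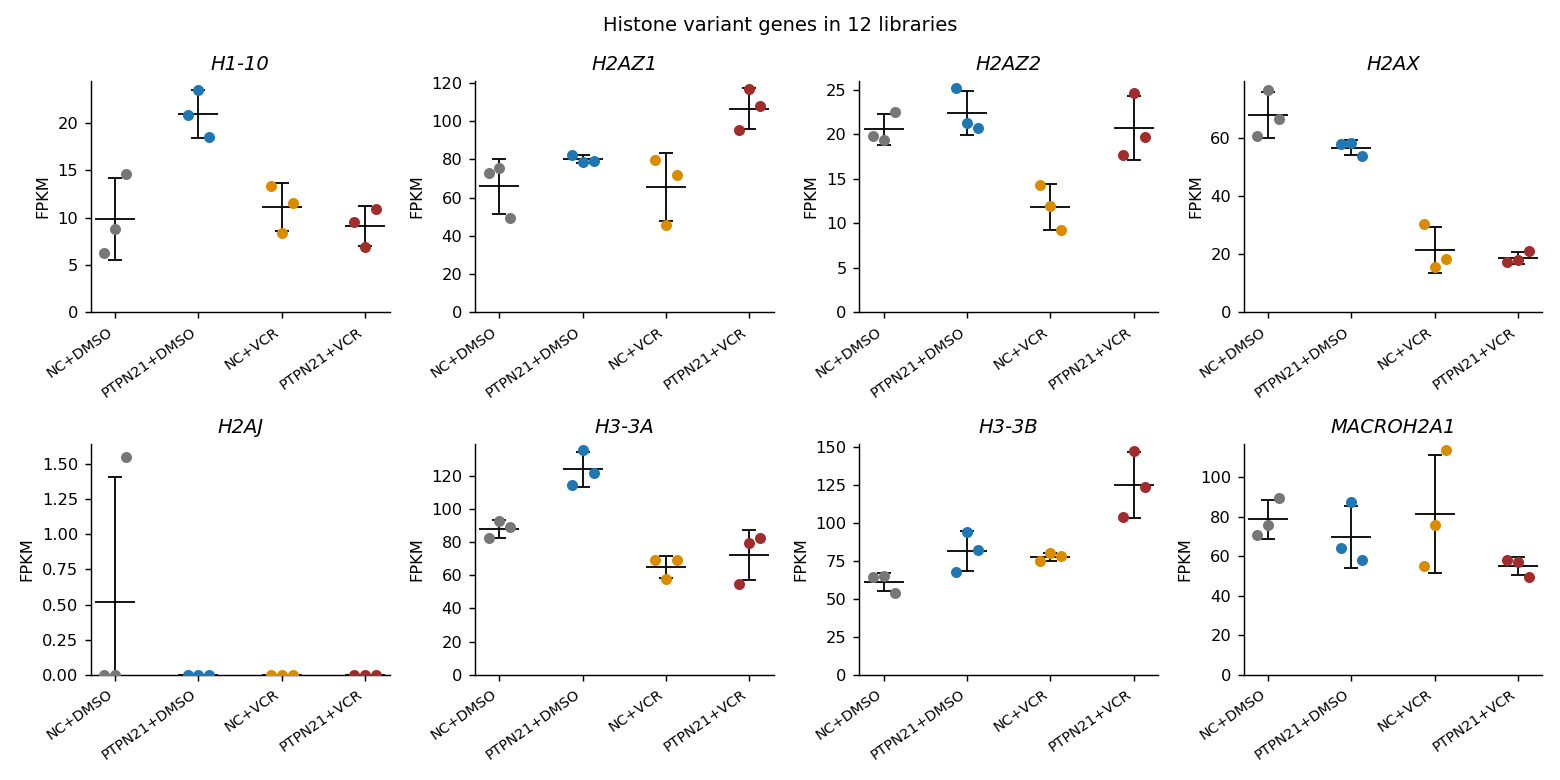
FPKM of each of the 8 variant genes (vertical axes from 0, scaled per gene) in the 12 libraries, by group on the horizontal axis; points are libraries, horizontal lines are means and bars are SD (n = 3). H2AX lies between 53.8 and 76.4 FPKM in the DMSO groups and between 15.6 and 30.4 in the VCR groups, while H3-3B is highest in PTPN21+VCR.

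In NC cells treated with VCR, H2AX, H2AZ2 and H3-3A fell, no variant gene rose and 4 of the 7 tested did not pass. Over all genes tested, 28.3% fell, 7.91% rose and 36.2% were called in either direction, and the median change was -0.36 against -0.02 for the 7 genes. In PTPN21 cells treated with VCR, H2AX, H1-10 and H3-3A fell, H3-3B rose and 3 genes did not pass. Here 19.3% of all genes fell, 9.22% rose and 28.5% were called, with a median change of -0.17 against -0.32 for the 7 genes. The groups did not overlap for 4 genes in NC cells (44.1% of all genes) and for 5 in PTPN21 cells (50.4%). The share of variant genes called was thus of the order of the background in NC cells, where 3 of 7 compare with 36.2%, and 4 of 7 compare with 28.5% in PTPN21 cells. Under a median ratio scaling the median change of all genes moved to -0.04 in NC cells and -0.01 in PTPN21 cells, and the share of calls that were higher moved from 21.9% to 55.8% and from 32.3% to 52.2%. For the variant genes, values under median ratio scaling are given below where the call differs. Changes and calls of all other genes named below are those of the deposited scaling alone.

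H2AX, the H2A variant phosphorylated around DNA double-strand breaks, had the largest fall among the variant genes in both VCR comparisons. It was 60.6, 76.4 and 66.6 FPKM in NC+DMSO and 30.4, 15.6 and 18.3 FPKM in NC+VCR. It was 57.8, 58.3 and 53.8 FPKM in PTPN21+DMSO and 17.2, 17.9 and 21.1 FPKM in PTPN21+VCR. All 6 DMSO libraries were above all 6 VCR libraries, and within NC+VCR replicate 1 stood above the other libraries. The mean in NC+VCR was 0.316 times that in NC+DMSO (log2 fold change -1.67, SE 0.20, limma adjusted p = 0.000116). In PTPN21 cells the mean after VCR was 0.331 times that with DMSO (log2 fold change -1.55, SE 0.20, limma adjusted p = 0.000211). Both calls were made in 21 of 21 alternative fits. Under median ratio scaling the changes were -1.28 and -1.36 (limma adjusted p = 0.00085 and 0.000654). Between constructs H2AX did not pass, with a log2 fold change of -0.25 in DMSO (limma adjusted p = 0.471) and -0.14 in VCR (limma adjusted p = 0.791). Without NC+VCR replicate 1 the latter value was 0.13.

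The H2A.Z genes differed from each other in the VCR comparisons. H2AZ2 was 19.8, 19.4 and 22.5 FPKM in NC+DMSO and 14.3, 11.97 and 9.19 FPKM in NC+VCR. It was 25.2, 21.2 and 20.7 FPKM in PTPN21+DMSO and 17.6, 24.7 and 19.7 FPKM in PTPN21+VCR. The NC+VCR libraries were the 3 lowest of the 12, and the other groups overlapped. The log2 fold change of H2AZ2 with VCR was -0.77 in NC cells (SE 0.18, limma adjusted p = 0.00658), or -0.40 under median ratio scaling, where it did not pass (limma adjusted p = 0.131). In PTPN21 cells it was -0.12 (SE 0.18, limma adjusted p = 0.669). PTPN21+VCR was above NC+VCR in all libraries, at a log2 fold change of 0.76 that did not pass (SE 0.18, limma adjusted p = 0.0542). The H2AZ2 difference passed in 2 of 21 alternatives, namely the higher FPKM minimum and without NC+DMSO replicate 3.

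H2AZ1, the more abundant H2A.Z gene, was 73.0, 75.5 and 49.5 FPKM in NC+DMSO and 79.6, 45.6 and 71.8 FPKM in NC+VCR. It was 82.4, 78.6 and 79.3 FPKM in PTPN21+DMSO and 95.3, 117 and 108 FPKM in PTPN21+VCR. The PTPN21+VCR libraries were the 3 highest, whereas the NC groups overlapped and each had 1 low library. None of the 4 pairwise differences of H2AZ1 was called in the fit over all groups. The log2 fold changes with VCR were -0.02 in NC cells (limma adjusted p = 0.944) and 0.40 in PTPN21 cells (limma adjusted p = 0.162), which passed with only the PTPN21 groups fitted (limma adjusted p = 0.0189). Those with PTPN21 were 0.30 in DMSO (limma adjusted p = 0.383) and 0.73 in VCR (limma adjusted p = 0.0914).

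The FPKM ratio of H2AZ1 to H2AZ2, in which any scaling between libraries cancels, was 3.26 ± 0.928 in NC+DMSO and 5.73 ± 2.004 in NC+VCR, and 3.60 ± 0.289 in PTPN21+DMSO and 5.20 ± 0.410 in PTPN21+VCR (SD, n = 3). The NC groups touched, with 3.90 the highest value in DMSO and 3.81 the lowest in VCR, and the PTPN21 groups did not. The log2 ratio was tested with 1 added to each FPKM, so that scaling no longer cancels exactly. It was 0.63 higher with VCR (exact permutation test within construct, two-sided, p = 0.01, adjusted p = 0.02 over 4 ratio tests). With the replicate number as a block the exact p was 0.0625. Between constructs the difference of 0.07 did not pass (exact permutation test, p = 0.735).

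MACROH2A1 encodes macroH2A1, an H2A variant with a large macro domain that is enriched in silent chromatin. Its values were 70.7, 75.5 and 89.6 FPKM in NC+DMSO and 55.0, 75.5 and 113.6 FPKM in NC+VCR. They were 64.1, 87.5 and 57.8 FPKM in PTPN21+DMSO and 58.0, 57.1 and 49.5 FPKM in PTPN21+VCR. The NC+VCR libraries spanned the widest range and PTPN21+VCR the narrowest, and the groups overlapped in each of the 4 comparisons. No MACROH2A1 difference was called, with log2 fold changes between -0.50 (PTPN21+VCR against NC+VCR, SE 0.23, limma adjusted p = 0.291) and -0.01 (NC+VCR against NC+DMSO, limma adjusted p = 0.986).

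The H3.3 genes moved apart under VCR. H3-3B was 64.3, 65.0 and 54.1 FPKM in NC+DMSO and 75.2, 80.4 and 78.1 FPKM in NC+VCR. It was 67.8, 93.9 and 82.5 FPKM in PTPN21+DMSO and 104, 148 and 124 FPKM in PTPN21+VCR. In both constructs every VCR library was above every DMSO library, and the PTPN21+VCR libraries were the 3 highest of the 12. H3-3B rose with VCR in PTPN21 cells by 0.61 (SE 0.15, limma adjusted p = 0.0100), a call made in 21 of 21 alternatives. In NC cells the log2 fold change of 0.35 did not pass (SE 0.15, limma adjusted p = 0.091), while under median ratio scaling it was 0.73 and passed (limma adjusted p = 0.00586).

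H3-3A was 82.4, 92.7 and 88.9 FPKM in NC+DMSO and 69.0, 57.6 and 69.1 FPKM in NC+VCR. It was 115, 135 and 122 FPKM in PTPN21+DMSO and 54.6, 79.3 and 82.5 FPKM in PTPN21+VCR. In both constructs every VCR library was below every DMSO library, and the PTPN21+DMSO libraries were the 3 highest. H3-3A fell with VCR by 0.79 in PTPN21 cells (SE 0.15, limma adjusted p = 0.00281), and by 0.60 under median ratio scaling (limma adjusted p = 0.0169), with a call in 21 of 21 alternatives. In NC cells it fell by 0.43 (SE 0.15, limma adjusted p = 0.0471). That call held in 5 of 21 alternatives, was lost on leaving out any of 10 of the 12 libraries (each of NC+DMSO, NC+VCR and PTPN21+DMSO, and PTPN21+VCR replicate 2), and had a value of -0.04 under median ratio scaling (limma adjusted p = 0.876).

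Reads of H3-3A can also belong to processed pseudogenes, of which the table listed 6 rows, 3 of them above 0. The transcript of H3P6 is 411 bases long and was 100% identical to H3-3A over its full length, and that of H3P16 was 99.3% identical. H3P6 was 41.3, 45.9 and 36.8 FPKM in NC+DMSO and 96.4, 23.7 and 25.5 FPKM in NC+VCR. It was 48.3, 48.2 and 43.9 FPKM in PTPN21+DMSO and 29.04, 28.4 and 30.1 FPKM in PTPN21+VCR. NC+VCR replicate 1 stood apart, with 63.8% of the summed H3-3A and pseudogene FPKM in pseudogene rows against 30.5% to 39.0% in the other libraries. With the rows summed, H3-3A was 135 ± 8.47 FPKM in NC+DMSO and 127 ± 55.8 in NC+VCR, and 183 ± 10.2 in PTPN21+DMSO and 108 ± 16.1 in PTPN21+VCR (SD, n = 3). The summed level differed by -0.17 between NC+VCR and NC+DMSO (limma adjusted p = 0.574) and by -0.51 without NC+VCR replicate 1 (limma adjusted p = 0.0187). The sum was chosen after the data were seen. FPKM is scaled to the length of each row, so where rows differ in length their FPKM do not add as fragments do. The sum and the pseudogene share are therefore approximate. How the authors' counting shared reads between these rows is not given in the sources used here, so the level of H3-3A alone is uncertain. H3-3B had 1 pseudogene row above 0, H3P36, at 77.6% identity and no more than 2.26 FPKM.

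The FPKM ratio of H3-3B to H3-3A was below 1 in all 6 DMSO libraries and above 1 in all 6 VCR libraries. It was 0.697 ± 0.0861 in NC+DMSO and 1.205 ± 0.166 in NC+VCR, and 0.655 ± 0.0550 in PTPN21+DMSO and 1.76 ± 0.222 in PTPN21+VCR (SD, n = 3). The log2 ratio, again with 1 added to each FPKM, was 1.09 higher with VCR, 0.78 in NC cells and 1.41 in PTPN21 cells (exact permutation test within construct, two-sided, p = 0.005, adjusted p = 0.02). This p is the smallest that 400 permutations allow. Leaving out any 1 library gave differences of 1.04 to 1.15. With the pseudogene rows added to H3-3A the difference was 0.95 (exact permutation test, p = 0.02), and NC+VCR replicate 1, at a ratio of 0.394, then lay within the DMSO libraries (0.380 to 0.500). The other NC+VCR libraries, at 0.902 and 0.778, were then also below 1, and the PTPN21+VCR libraries stayed above it (1.17, 1.28 and 1.04). Whether the ratio exceeded 1 in NC+VCR thus depends on how reads were shared between these rows, and ratios to the summed FPKM are approximate. Between constructs the difference of 0.23 did not pass (exact permutation test, p = 0.15).

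**Figure D2:**
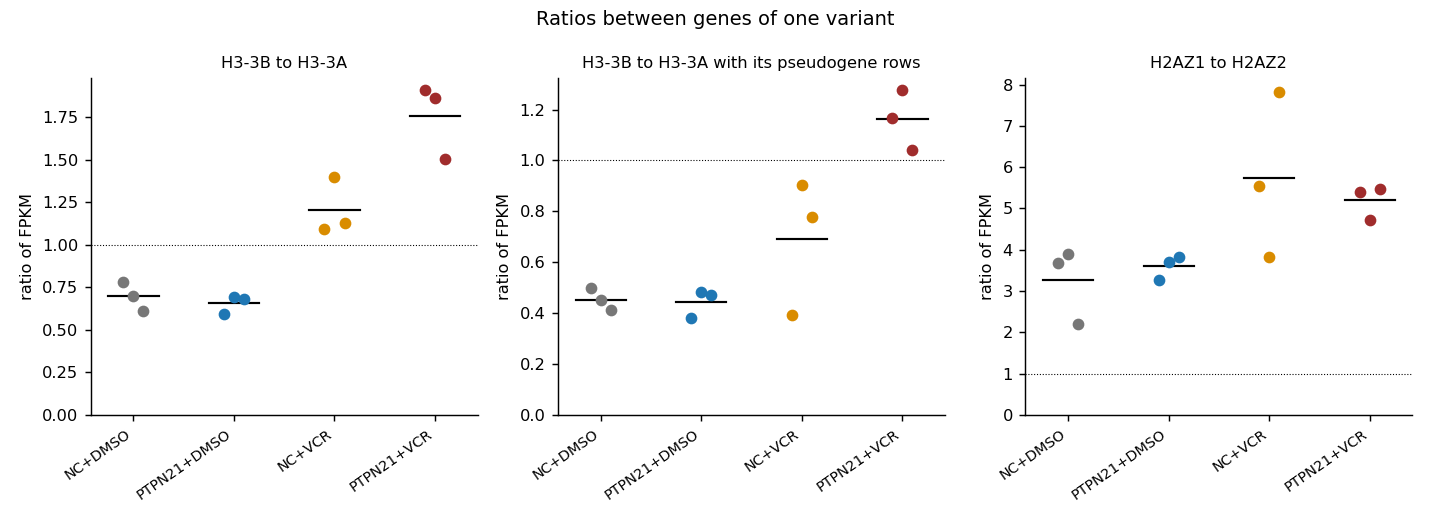
Ratio of FPKM (vertical axes from 0) between the H3.3 genes, between H3-3B and H3-3A with its pseudogene rows, and between the H2A.Z genes, in each library by group; points are libraries, lines are group means and the dotted line marks a ratio of 1. In the left panel all 6 DMSO libraries lie below 1 and all 6 VCR libraries above it. In the middle panel every NC+VCR library lies below 1, with replicate 1 at 0.394.

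H1-10 encodes H1.10, a linker histone that binds DNA between nucleosomes. It was 6.24, 8.76 and 14.7 FPKM in NC+DMSO and 20.9, 23.6 and 18.5 FPKM in PTPN21+DMSO. With VCR it was 13.4, 8.41 and 11.5 FPKM in NC cells and 9.53, 6.85 and 10.95 FPKM in PTPN21 cells. The PTPN21+DMSO libraries were the 3 highest, and the other groups overlapped. H1-10 rose in PTPN21+DMSO against NC+DMSO by 1.08 (SE 0.27, limma adjusted p = 0.0403), and fell by 1.14 in PTPN21+VCR against PTPN21+DMSO (SE 0.27, limma adjusted p = 0.00899). These contrasts share the PTPN21+DMSO libraries. The first call held in 9 of 21 alternatives and was lost on leaving out any of 7 libraries (NC+DMSO replicates 1 and 2, each of PTPN21+DMSO, and PTPN21+VCR replicates 1 and 3), while the second held in 21 of 21. In NC cells the log2 fold change with VCR was 0.21 (limma adjusted p = 0.575), and between constructs in VCR it was -0.26 (limma adjusted p = 0.682). The antisense gene H1-10-AS1 was at 4.92 FPKM in NC+DMSO replicate 3, which also had the highest H1-10 level of its group, and at or below 0.848 FPKM elsewhere. The strand setting of the counting is not given in the sources used here, so reads of this pair cannot be told apart.

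Between constructs, 1 of the 7 tested genes rose and 0 fell in DMSO (H1-10), against 2.65% of all genes higher, 3.69% lower and 6.34% called. In VCR also 1 rose and 0 fell (H3-3B), against 1.00% of all genes higher, 0.820% lower and 1.82% called. The median change of the 7 genes was 0.30 in DMSO and 0.12 in VCR, beside -0.14 and 0.03 for all genes. In DMSO 5 genes had groups that did not overlap (33.4% of all genes), and in VCR 3 did (22.5%), namely H2AZ1, H2AZ2 and H3-3B. H3-3B in VCR differed by 0.67 (SE 0.15, limma adjusted p = 0.0490), a call that held in 5 of 21 alternatives, was lost under median ratio scaling (0.65, limma adjusted p = 0.0724) and was lost on leaving out any of 10 of the 12 libraries (NC+DMSO replicates 1 and 2, PTPN21+DMSO replicates 2 and 3, and each of NC+VCR and PTPN21+VCR). In DMSO H3-3B differed by 0.40 (SE 0.15, limma adjusted p = 0.125). H3-3A differed by 0.49 in DMSO (SE 0.15, limma adjusted p = 0.0777), and by 0.67 under median ratio scaling, where it passed (limma adjusted p = 0.0373), and by 0.12 in VCR (limma adjusted p = 0.734). The PTPN21 libraries were also the deeper ones in both contrasts.

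The interaction asks whether the response to VCR differed between the constructs. No variant gene passed in limma, against 0.129% of all genes called, 0.0259% higher and 0.104% lower. At an unadjusted limma p below 0.05 there were 2 of the 7 variant genes, beside 1624 of the 11591 genes tested. The largest value was that of H1-10, at -1.34 (SE 0.39, limma adjusted p = 0.191), followed by H2AZ2 at 0.65 (SE 0.25, limma adjusted p = 0.291). For H2AX it was 0.12 (SE 0.29, limma adjusted p = 0.885). The responses of the constructs were therefore not shown to differ for any of the 7 genes.

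**Figure D3:**
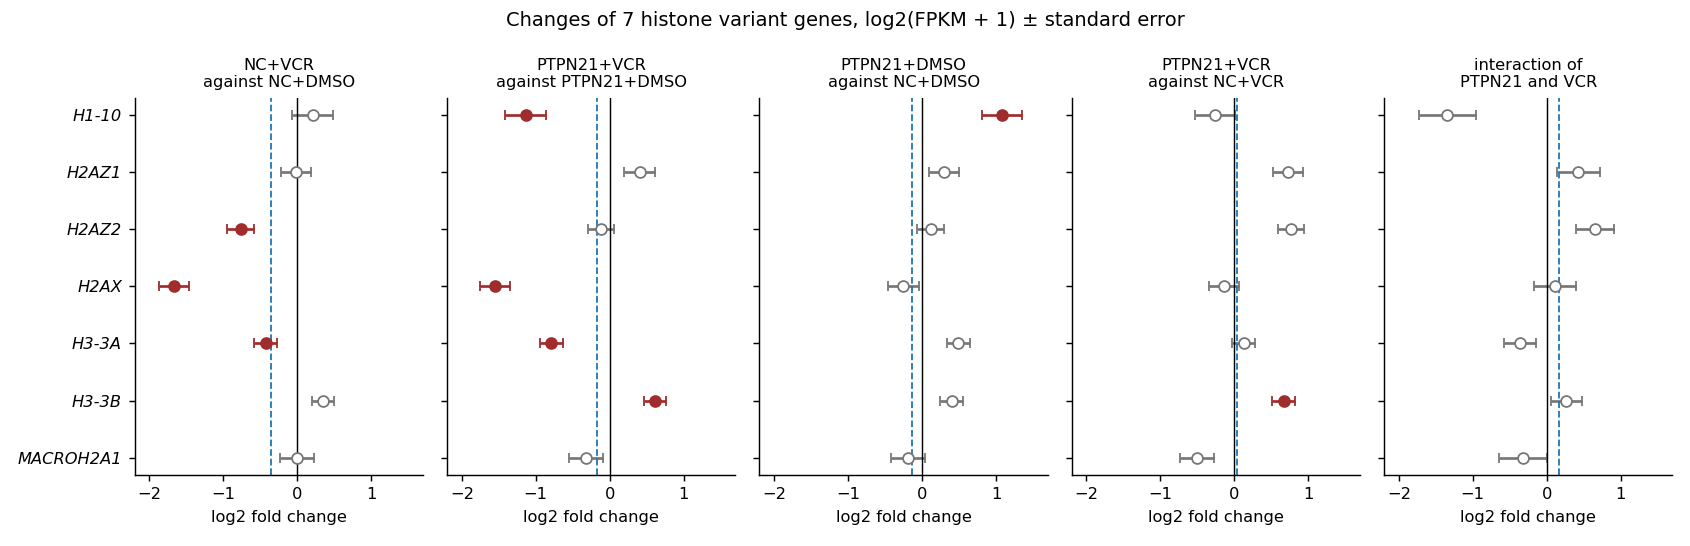
Log2 fold change on the log2(FPKM + 1) scale (horizontal axis) of the 7 tested variant genes in the 4 pairwise comparisons and the interaction; bars are SE, filled points passed (adjusted p below 0.05) and the dashed line is the median of all genes tested. H2AX lies at -1.67 and -1.55 in the VCR comparisons, and H3-3A and H3-3B lie on opposite sides of 0 in both.

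Replication-dependent histone genes are set here beside the variant genes. Their mRNAs typically end in a stem-loop, and the study's methods do not say how RNA was selected for sequencing. Values of these genes, and of the stem-loop mRNA of H2AX, may therefore be incomplete and do not measure histone supply. Of 66 replication-dependent genes 38 could be tested. With VCR 0 rose and 29 fell in NC cells, and 0 rose and 22 fell in PTPN21 cells, with median changes of -1.05 and -0.94. Over all genes 28.3% fell in NC cells and 19.3% in PTPN21 cells, with median changes of -0.36 and -0.17. H1-2, a linker histone gene at a mean of 759 FPKM, fell by 2.03 in NC cells (limma adjusted p = 1.94e-06) and fell by 1.93 in PTPN21 cells (limma adjusted p = 2.35e-06). H2AC18, an H2A gene, fell by 2.05 (limma adjusted p = 1.22e-05) and by 2.20 (limma adjusted p = 6.44e-06), and H2BC12, an H2B gene, by 0.67 (limma adjusted p = 0.00326) and by 0.66 (limma adjusted p = 0.00424). H2AX at -1.67 and -1.55 lay below the median of these genes, and the H3.3 and H2A.Z genes lay above it in both comparisons. H1-10 lay above it in NC cells (0.21) and below it in PTPN21 cells (-1.14). No test compared the groups of genes. Between constructs 0 of 38 were called in DMSO (6.34% of all genes), and in VCR H1-4 and H4C5 rose (1.00% of all genes). Near-identical copies within the clusters make single values of these genes uncertain.

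**Figure D4:**
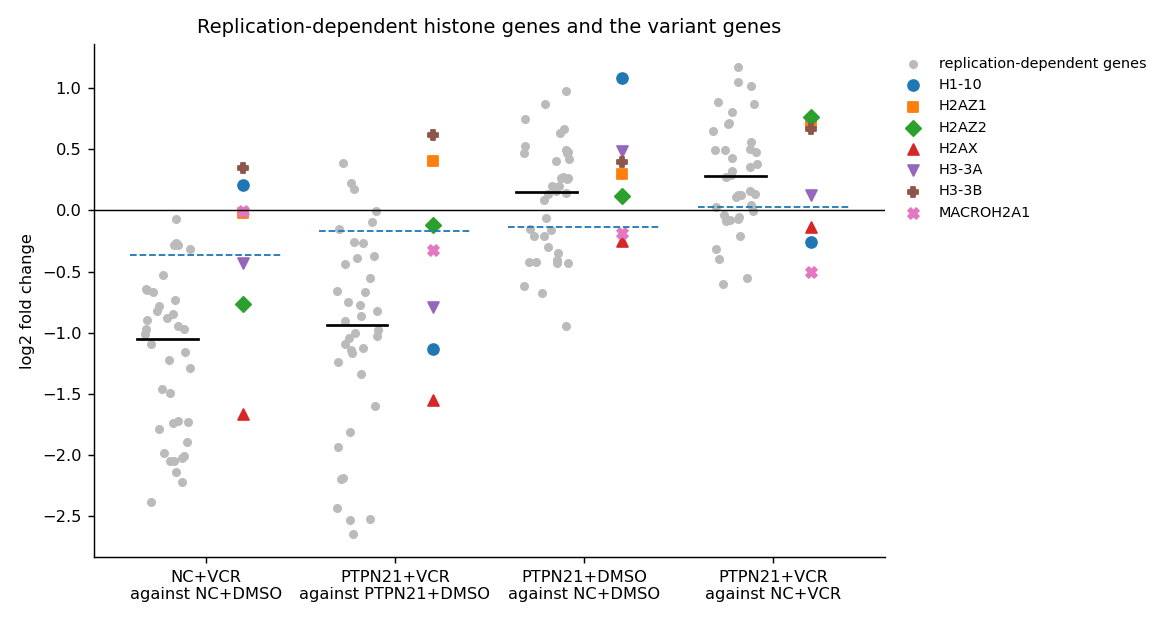
Log2 fold change (vertical axis) of the 38 tested replication-dependent histone genes (grey points, black line at the median) beside the 7 variant genes (coloured markers) in the 4 pairwise comparisons, with the median of all genes dashed. In the VCR comparisons the grey medians lie at -1.05 and -0.94, H2AX lies below them and H3-3B is the highest variant gene.

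Cell cycle genes moved in the same comparisons. Of 10 G1/S genes, 0 rose and 8 fell in NC cells with VCR, and 0 rose and 7 fell in PTPN21 cells. Of 10 G2/M genes, 3 rose and 4 fell in NC cells, and 4 rose and 1 fell in PTPN21 cells. Over all genes, 7.91% rose and 28.3% fell in NC cells, and 9.22% rose and 19.3% fell in PTPN21 cells. Cyclin B1 gene CCNB1 rose by 1.21 (limma adjusted p = 7e-05) and by 1.03 (limma adjusted p = 0.000236). PCNA, the replication clamp gene, was at -0.20 in NC cells (limma adjusted p = 0.303) and at -0.18 in PTPN21 cells (limma adjusted p = 0.397). The 8 erythroid genes moved too, and their summed FPKM was 1405 to 2267 in NC+DMSO and 891 to 922 in NC+VCR, and 3216 to 4366 in PTPN21+DMSO and 1096 to 1264 in PTPN21+VCR. Of these 8 genes 8 fell with VCR in NC cells and 7 in PTPN21 cells. The summed epithelial markers went the other way, from 388 to 589 FPKM in NC+DMSO to 1153 to 1359 in NC+VCR. In PTPN21 cells the sum went from 510.2 to 579 with DMSO to 1203 to 1676 with VCR. Of these 4 genes, the keratin genes KRT8 and KRT18 rose in both constructs. EPCAM did not pass (limma adjusted p = 0.0549 in NC cells and 0.064 in PTPN21 cells). CDH1, below the FPKM minimum, went down, from a mean of 0.934 to 0 FPKM in NC cells and from 0.201 to 0.0424 in PTPN21 cells. The summed T cell markers were 64.0 to 97.7 FPKM in NC+DMSO and 108 to 145 elsewhere. The part of these shifts in the histone values was not tested.

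Among 8 genes of H3.3 deposition, 1 rose and 2 fell with VCR in each construct. DAXX, whose protein places H3.3 with ATRX at telomeres and repeats, rose by 1.09 in NC cells (limma adjusted p = 0.000181) and by 0.77 in PTPN21 cells (limma adjusted p = 0.00192). ASF1A, which hands H3.3 to the HIRA complex, fell by 1.02 (limma adjusted p = 0.000239) and by 0.87 (limma adjusted p = 0.000734), and CABIN1, a HIRA complex subunit, fell by 0.90 (limma adjusted p = 0.0126) and by 1.05 (limma adjusted p = 0.00675). Calls in the list were 3 of 8 in each construct, beside a share of all genes called of 36.2% in NC cells and 28.5% in PTPN21 cells. Between constructs DEK, a histone chaperone gene, fell in DMSO by 0.72 (limma adjusted p = 0.0319), and DAXX fell in VCR by 0.66 (limma adjusted p = 0.0418).

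Among 14 genes of H2A.Z exchange, 0 rose and 5 fell with VCR in NC cells, and 1 rose and 4 fell in PTPN21 cells. The 5 of 14 called in NC cells compare with 36.2% of all genes, and 28.5% of all genes were called in PTPN21 cells. The list medians were -0.48 and -0.55, beside -0.36 and -0.17 for all genes. INO80, the ATPase of a remodeller linked to H2A.Z removal, fell in NC cells by 1.26 (limma adjusted p = 0.00804), and KAT5, the acetyltransferase of the TIP60 complex, by 1.09 (limma adjusted p = 0.000422). In PTPN21 cells RUVBL2, an ATPase shared by the remodellers, fell by 1.08 (limma adjusted p = 4.66e-05) and VPS72, the H2A.Z-binding subunit, by 0.96 (limma adjusted p = 0.000204). BRD8, a TIP60 subunit, rose there by 0.68 (limma adjusted p = 0.00947) and did not pass in NC cells (0.16, limma adjusted p = 0.456). VPS72 and RUVBL2 also fell in NC cells, by 1.07 (limma adjusted p = 9e-05) and by 0.68 (limma adjusted p = 0.000949). KAT5 also fell in PTPN21 cells, by 0.65 (limma adjusted p = 0.0109), and INO80 did not pass there (-0.84, limma adjusted p = 0.0609). SRCAP, the main exchange ATPase, was at -0.70 in NC cells (limma adjusted p = 0.0677) and at -0.77 in PTPN21 cells (limma adjusted p = 0.0584). Between constructs BRD8 and ANP32E, an H2A.Z removal chaperone gene, fell in DMSO by 0.73 (limma adjusted p = 0.0297) and by 0.61 (limma adjusted p = 0.043), and ANP32E fell in VCR by 0.75 (limma adjusted p = 0.0405).

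Of 8 genes of H2AX signalling, 0 rose and 2 fell with VCR in NC cells, and 1 rose and 0 fell in PTPN21 cells. PRKDC, the gene of the DNA-PK catalytic subunit that phosphorylates H2AX, fell in NC cells by 1.45 (limma adjusted p = 0.0019), with 62.3 ± 29.2 FPKM in NC+DMSO and 20.6 ± 1.23 in NC+VCR (SD, n = 3). RNF8, a ubiquitin ligase recruited to marked chromatin, fell by 0.91 (limma adjusted p = 0.0288). ATR, a kinase of the replication stress response, rose in PTPN21 cells by 0.85 (limma adjusted p = 0.0404). The 2 of 8 and 1 of 8 called compare with 36.2% and 28.5% of all genes. Between constructs PRKDC and BAZ1B, an H2AX tyrosine kinase gene, fell in DMSO by 1.10 (limma adjusted p = 0.038) and by 0.79 (limma adjusted p = 0.0332), and none of the 8 passed in VCR.

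Of 6 genes of the replication-coupled chaperones and FACT, 0 rose and 3 fell with VCR in each construct. The chromatin assembly factor genes CHAF1B and CHAF1A were among them in both. CHAF1B fell by 0.79 (limma adjusted p = 0.00168) and by 0.81 (limma adjusted p = 0.00181). ASF1B, the proliferation-linked ASF1 gene, fell in NC cells by 1.37 (limma adjusted p = 0.00458), and CHAF1A fell in PTPN21 cells by 0.66 (limma adjusted p = 0.0167). Of 4 histone transport chaperone genes, 2 rose and 0 fell in NC cells, and 2 rose and 1 fell in PTPN21 cells. Beside both lists, 7.91% of all genes rose and 28.3% fell in NC cells, and 9.22% rose and 19.3% fell in PTPN21 cells. NAP1L1, an H2A-H2B carrier, rose by 1.06 (limma adjusted p = 1.06e-05) and by 0.43 (limma adjusted p = 0.00475), and NPM1, a nucleolar chaperone gene, by 0.48 (limma adjusted p = 0.00156) and by 0.42 (limma adjusted p = 0.00405). NAP1L4 fell in PTPN21 cells by 0.56 (limma adjusted p = 0.0191). Between constructs CHAF1A and SUPT16H fell in DMSO by 0.72 (limma adjusted p = 0.0389) and by 0.68 (limma adjusted p = 0.0323), NAP1L1 rose in DMSO by 0.40 (limma adjusted p = 0.031), and SSRP1 fell in VCR by 0.61 (limma adjusted p = 0.00705). SUPT16H and SSRP1 are the subunits of FACT.

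**Figure D5:**
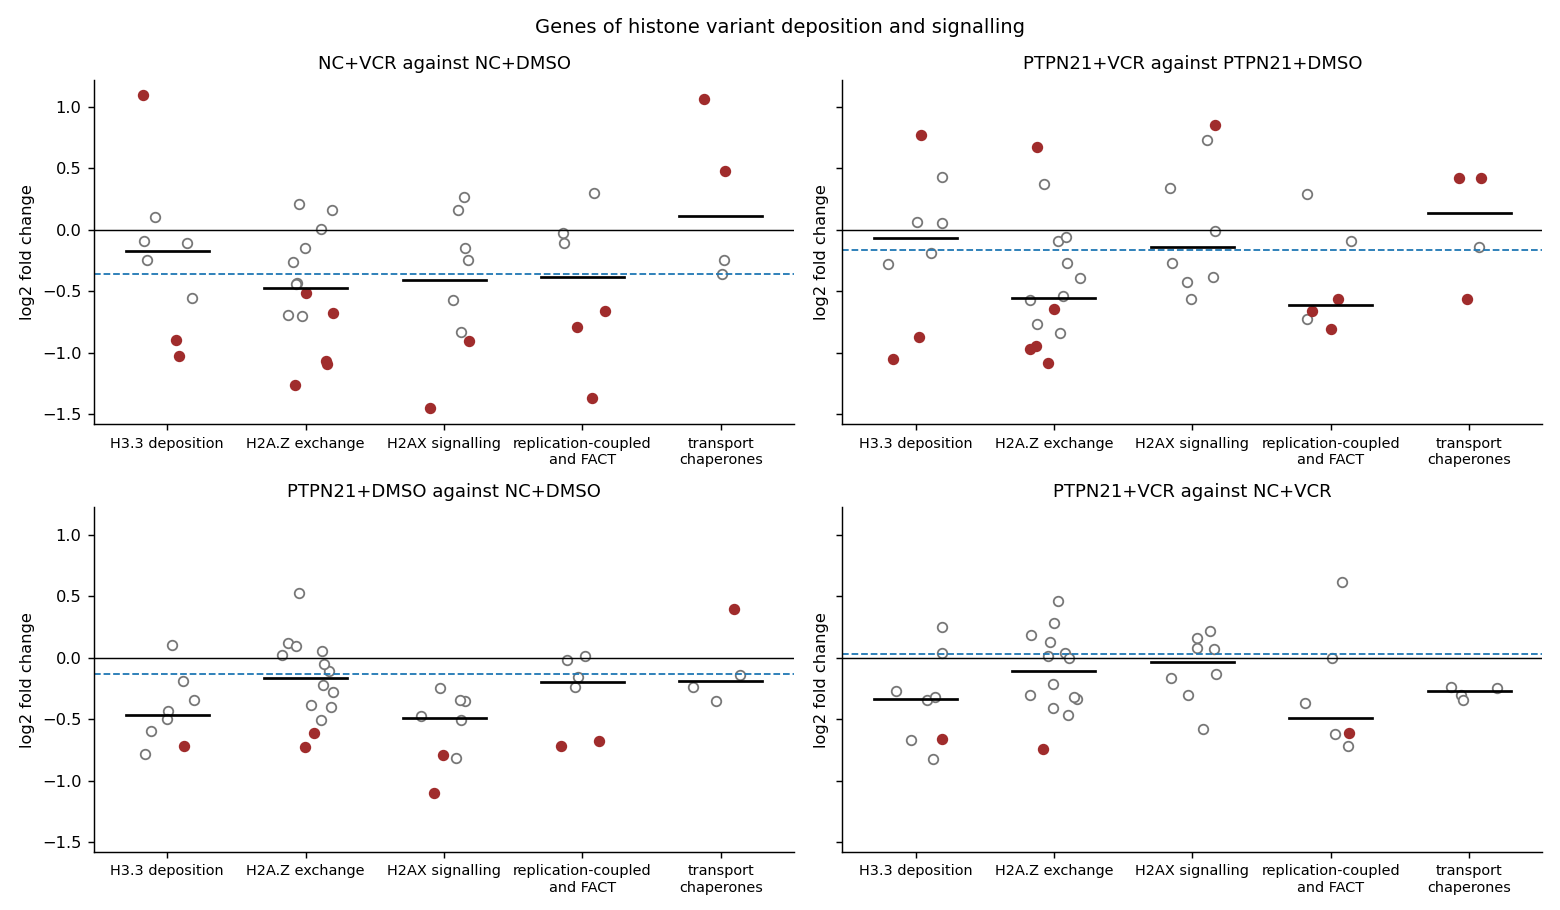
Log2 fold change (vertical axis) of the genes in 5 lists of histone variant deposition, signalling and transport in the 4 pairwise comparisons; filled points passed (adjusted p below 0.05), black lines are list medians and the dashed line is the median of all genes. The H2A.Z exchange medians of -0.48 and -0.55 in the VCR comparisons lie below the dashed lines at -0.36 and -0.17.

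Among 6 genes of linker histone and macroH2A partners, 5 could be tested. With VCR 3 rose and 1 fell in NC cells, and 1 rose and 0 fell in PTPN21 cells. The shares of all genes were 7.91% higher and 28.3% lower in NC cells, and 9.22% higher and 19.3% lower in PTPN21 cells. HMGN1, a nucleosome-binding protein gene that competes with linker histones, rose by 0.87 (limma adjusted p = 0.00529) and by 0.61 (limma adjusted p = 0.0368). HMGB2, an HMG-box gene, rose in NC cells by 0.61 (limma adjusted p = 0.0318), and PARP1, whose protein binds macroH2A1, fell by 0.50 (limma adjusted p = 0.00668). PARP1 also fell between constructs in DMSO by 0.49 (limma adjusted p = 0.0357). Of 9 other variant histone genes CENPA alone reached the FPKM minimum. CENPA, the centromeric H3 gene, was 9.82 ± 6.72 FPKM in NC+DMSO and 60.8 ± 11.04 in NC+VCR, and 51.8 ± 9.13 in PTPN21+DMSO and 38.2 ± 16.4 in PTPN21+VCR (SD, n = 3). The NC+DMSO libraries were the low ones. CENPA rose with VCR in NC cells by 2.70 (limma adjusted p = 0.000483) and with PTPN21 in DMSO by 2.48 (limma adjusted p = 0.0101), contrasts that share the NC+DMSO libraries, and its interaction of -3.20 did not pass (limma adjusted p = 0.0562).

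The variant genes did not vary as one over the 12 libraries, whose shared groups are a source of likeness between any genes. Pearson's r on log2(FPKM + 1) ranged from -0.66 for H2AX with H3-3B to 0.75 for H2AX with H3-3A. It was -0.16 between the H3.3 genes and 0.37 between the H2A.Z genes. The genes most like H2AX, among the 11591 tested, were TUFM, a mitochondrial elongation factor gene (r = 0.98), and EIF3CL (r = 0.98). For H3-3B they were FAU, a ribosomal protein gene (r = 0.94), and MT-RNR1, the mitochondrial 12S rRNA gene (r = 0.93), and for H3-3A LSM10, a U7 small nuclear ribonucleoprotein gene (r = 0.94), and GFOD1 (r = 0.93). For H2AZ1 they were STARD3NL (r = 0.96) and SNHG32 (r = 0.94), for H2AZ2 IFNAR2 (r = 0.91) and JAGN1 (r = 0.89), and for H1-10 TRIB3, a stress-induced pseudokinase gene (r = 0.96), and PPP1R12C (r = 0.93). MACROH2A1 had the weakest likeness, with ZFYVE27 (r = 0.85) and CBX2, a Polycomb subunit gene (r = 0.84). None of the 7 genes had another variant gene among its 2 most similar genes. These were drawn from all 11591 tested genes, so their absence says little about whether the variant genes vary together.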

How the data were processed

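RNA-seq was performed on 12 libraries, 3 in each of 4 groups, grouped by their labels. The authors deposited 1 table of FPKM values, which an external company had made. The methods speak of digital gene expression tag profiling, and the submitters' processing notes name fastp, Bowtie2 and the mouse build mm10, although the gene identifiers are human. Counting, annotation and strand setting are not given in the sources used here. No value column was left unused (0).

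Genes with a mean of at least 1 FPKM were tested with limma 3.58.1 in R 4.3.3 on log2(FPKM + 1), with an intensity trend and 1 model of 4 group means. P-values were adjusted by Benjamini-Hochberg. A pseudocount understates changes of low genes. Ratios of genes were compared as log2 ratios of FPKM + 1 by exact permutation tests over libraries. The ratio of H2AX to H2AJ was planned but not computed, because H2AJ was listed at 0 in 11 libraries. Depth was estimated from single-exon genes of at least 500 bases in GENCODE release 29, in a range of steps that was narrowed after a first search, and a step of 1 fragment cannot be separated from 2, so the absolute depths are uncertain by that factor. Scripts used Python 3.11.15, with numpy 2.4.6 for arrays, pandas 2.3.3 for tables and matplotlib 3.10.9 for figures, and were tested on simulated data. Alternatives were other pseudocounts, filters, scalings and variance models, the 2 groups alone, a replicate block, leaving out each library, and H3-3A summed with its pseudogenes.

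The genes named were all 8 variant genes, at most 2 rises and 2 falls per gene list and comparison, the 3 most abundant replication-dependent histone genes, and the 2 genes most like each variant gene. H1-4, H4C5 and the pseudogenes were named after their values were seen. Changes of single epithelial and T cell markers, and of H2A.Z exchange genes in the other construct, were also added then. The variant genes and lists were chosen with earlier results of these data known.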

Additional observations from a re-analysis of the deposited data

Results flagged for a closer look

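The difference of H1-10 between constructs had opposite signs with and without VCR. It passed in DMSO (limma adjusted p = 0.0403) and did not pass in VCR (log2 fold change -0.26, limma adjusted p = 0.682), where the groups overlapped. In DMSO all 3 PTPN21 libraries were above the NC mean, and in VCR all 3 PTPN21 libraries were below the NC mean, with a ratio of means of 0.820 in VCR against 2.12 in DMSO. The difference between these effects was tested as the interaction, and it did not pass (log2 value -1.34, SE 0.39, limma adjusted p = 0.191). Over 20 alternatives its adjusted p ranged from 0.103 to 0.376.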

How the results depend on the processing

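The H2AX calls with VCR in both constructs, and the H3-3A, H3-3B and H1-10 calls in PTPN21 cells, held in all 21 alternatives. The number of variant genes called between constructs in DMSO, 1 as reported, was 0 with no filter, TPM scaling, no trend, only the 2 groups or the replicate block, 2 with median ratio scaling, and 0 to 1 on leaving out a library. In VCR, also 1, it was 0 with these 5 settings and with median ratio scaling, 2 with a minimum of 5 FPKM, and 0 to 2 on leaving out a library. With VCR in NC cells the count was 2 to 3 on leaving out a library, and in PTPN21 cells it was 4. The cause was not tested. The log2 ratio of H2AZ1 to H2AZ2 changed by 0.63 with VCR under the replicate block (exact permutation p = 0.0625) and by 0.50 to 0.76 on leaving out a library. Between constructs it was -0.0553 to 0.192, below 0 without NC+DMSO replicate 3 or NC+VCR replicate 2.

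Signs turned among uncalled values. Median ratio scaling gave 0.36 for H2AZ1 and 0.38 for MACROH2A1 with VCR in NC cells, 0.0684 for H2AZ2 with VCR in PTPN21 cells and -0.0794 for the H2AX interaction. TPM scaling gave -0.0271 for H2AZ2 between constructs in DMSO, and the summed H3-3A gave -0.16 between constructs in VCR. On leaving out a library the VCR changes in NC cells ranged from -0.0511 to 0.51 for H1-10, -0.21 to 0.22 for H2AZ1 and -0.27 to 0.24 for MACROH2A1. H2AX ranged from -0.33 to 0.13 between constructs in VCR and from -0.0745 to 0.38 in the interaction.

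Same-numbered libraries did not deviate together (correlations from -0.145 to 0.0583 over 18 pairs), so no pairing by number was detected. The sources used here do not say whether the numbers pair the samples. The block left 0 calls between constructs. With VCR it took the H3-3A call in NC cells (limma adjusted p = 0.0548). Changes in H2AJ were not detectable, since 11 of its 12 values were 0.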
